A study of Mus musculus with 6 samples.

Results

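Sodium, proton, chloride, bicarbonate, phosphate, sulfate and calcium cross the membranes of the gut epithelium largely on solute carriers that swap one ion for another or carry several together. The genes examined here are those of the mouse families *Slc4*, *Slc8*, *Slc9*, *Slc12*, *Slc20*, *Slc24*, *Slc26* and *Slc34*, taken by their symbol, each with the probe set of highest mean over the 6 arrays. They numbered 51 of the 19938 genes that had a probe set with a single symbol. Of these, 48 encode transporters or close relatives and 3 encode other proteins, the scaffolds *Slc9a3r1* and *Slc9a3r2* and the nuclear protein *Slc4a1ap*, which share only the prefix.

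Villi were isolated mechanically from the whole intestine of littermates at postnatal day 5 (P5). Control pups were *Trpm7* fl/fl, and so carried the floxed allele without Cre. Mutant pups were *Trpm7* fl/fl with the *Villin1-Cre* transgene, in which the *Villin1* promoter drives Cre in intestinal epithelial cells, so that other cells of the villus keep the gene. There were 3 replicates of each genotype and 1 array per replicate. The sources used here do not say whether a replicate was 1 pup or several, so n counts arrays. The p-values weigh each difference against the spread between these arrays. The labels give the background of both groups as C57BL/6, whereas the methods give another strain for the floxed line. TRPM7, the channel deleted here, passes divalent cations. The comparison asks how the transcripts of ion carriers, most of them for other ions, stood in mutant villi. Values are log2 signals of Affymetrix probe sets. A difference of 1 on this scale is a 2-fold change, and the median probe set had a mean of 6.28. A gene was called when its adjusted p from limma was 0.05 or less. For 3 arrays against 3, the smallest p that an exact permutation test allows is 0.1.

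In the gut, sodium chloride is absorbed by a pair of exchangers in the brush border, one taking up sodium for protons and one taking up chloride for bicarbonate. Chloride is secreted when a cotransporter of the basolateral membrane loads it into the cell and a channel of the apical membrane lets it out, and bicarbonate is loaded for secretion by a basolateral sodium bicarbonate cotransporter. Phosphate enters enterocytes together with sodium. Sodium/calcium exchangers of the families *Slc8* and *Slc24* are best known from heart, nerve, eye and pigment cells.

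*Trpm7* itself had log2 signals of 9.11, 8.96 and 9.03 in the control arrays and 8.03, 7.79 and 7.88 in the mutant arrays (adjusted p = 0.00019 from limma). No source used here says whether its probe set lies in the deleted stretch. The arrays had medians from 6.24 to 6.3. Control replicate 1 and mutant replicate 1 carried *Xist* without Y-linked signal, and mutant replicates 2 and 3 carried Y-linked signal with little *Xist*. Control replicates 2 and 3 held both, with *Xist* at 9.82 and 9.66 and the Y-linked *Eif2s3y* at 7.71 and 7.84, where *Eif2s3y* stood at 3.63 in control replicate 1. These 2 arrays were also the most alike of any within a group, with an SD of their difference over all probe sets of 0.184 against 0.239 to 0.28 for the other pairs. Whether these 2 are independent samples is not known, and if they are not, the control SDs and the intervals given here may be too narrow. Differences against control replicate 1 alone are given beside the main ones. Epithelial markers were all at or above the median signal (8 of 8), and 4 of them rose and 1 fell. Of other cell types, 2 of 7 leukocyte markers rose and 1 fell, and 1 of 6 endothelial and 1 of 6 neural markers fell. The called shares were 62.5% (epithelial), 42.9% (leukocyte), 16.7% (endothelial) and 16.7% (neural). Beside them stand 19.5% of all genes and 31.5% of those at or above the median signal. The leukocyte calls were *S100a8* (difference 3.31), *Itgam* (0.83) and *Cd74* (-0.54). *Emcn* (-0.53) was the endothelial call and *S100b* (-2.06) the neural one. The part of all these markers in the results was not tested. In villi, a change in the number of cells of a type cannot be told apart from a change in RNA per cell.

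Of the 51 genes, 5 rose in mutant villi, 9 fell and 37 were not called. The called share was 27.5%, with 9.8% higher and 17.6% lower. Over all genes with 1 symbol the called share was 19.5%, with 9.39% higher and 10.1% lower. The median difference was -0.013 for these genes and 0.005 for all genes, and the median absolute difference was 0.16 and 0.137. The calls lay almost wholly among the brighter probe sets. At or above the median signal, 13 of 26 were called (50%), beside 31.5% of all genes at that level, and below it 1 of 25 was called (4%), beside 6.18%. The groups did not overlap for 24 of 51 genes (47.1%), against 37.5% of all genes. An unadjusted p under 0.05 was reached by 20 of the 51 genes, and the share of all genes that reached it was not computed. With control replicates 2 and 3 averaged, 4 genes rose and 8 fell, and the share of all genes called in that fit was not computed. Against control replicate 1 alone, the 9 falls kept differences from -0.46 (*Slc12a9*) to -1.66 (*Slc34a3*). The 5 rises stood there from 0.57 (*Slc20a2*) to 1.85 (*Slc9a2*). Fewer genes were called on that control, where 1 array shows no spread of its own. Changes of at least 2-fold were confined to *Slc9a2*, *Slc4a4* and *Slc34a3* among the called genes.

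**Figure D1:**
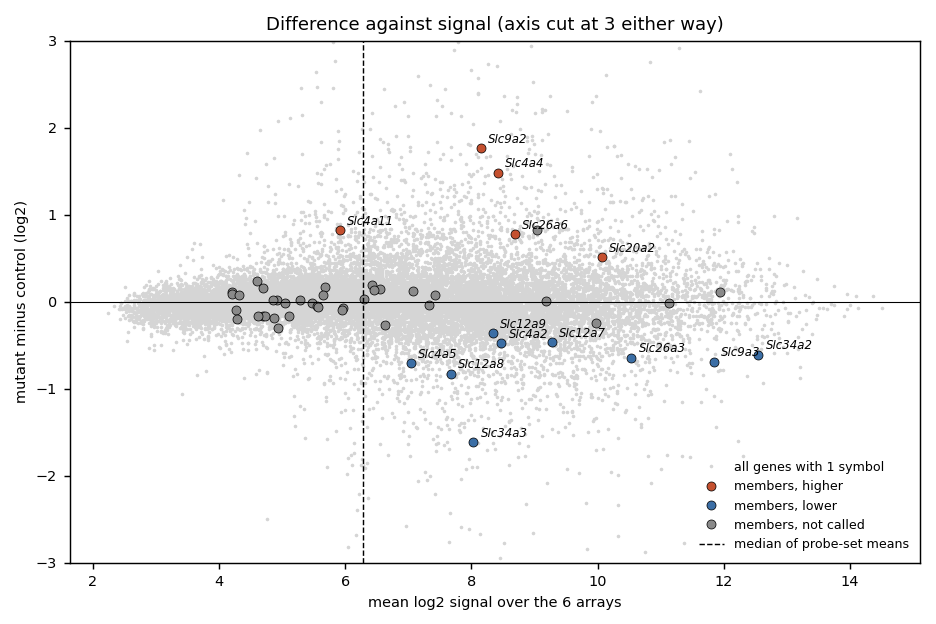
Difference in log2 signal (mutant minus control, vertical axis) against mean log2 signal over the 6 arrays (horizontal axis) for all genes with 1 symbol in grey and for the 51 ion exchangers and cotransporters in colour. The dashed line marks the median of probe-set means, 6.28, and *Slc4a11* is the 1 called gene to its left.

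The sodium/proton exchangers of the brush border moved apart. *Slc9a3* encodes NHE3, the main apical sodium/proton exchanger of absorptive enterocytes. It had log2 signals of 12.21, 12.15 and 12.20 in control villi and 11.61, 11.33 and 11.55 in mutant villi, so that every mutant array lay below every control array. Its mean fell by 0.69, from 12.19 ± 0.032 to 11.50 ± 0.15 (SD, n = 3 each), which is 1.61-fold lower (95% interval of the difference -0.90 to -0.48, adjusted p = 0.0019 from limma). *Slc9a2* encodes NHE2, the other well-known apical exchanger of the family. Its signals were 7.18, 7.38 and 7.25 in control villi and 9.13, 9.08 and 8.89 in mutant villi. The groups stood more than 1 unit apart, and the mean rose by 1.76, from 7.27 ± 0.10 to 9.03 ± 0.13, or 3.39-fold (interval 1.55 to 1.98, adjusted p = 4.2e-05 from limma). This was the highest difference among the 51 genes.

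*Slc9a8* encodes NHE8, an exchanger of the brush border in the young intestine. It read 10.17, 10.06 and 10.04 in control villi and 9.94, 9.81 and 9.79 in mutant villi. The groups did not overlap, yet the difference of -0.24 (interval -0.43 to -0.06) missed the threshold (limma, adjusted p = 0.075). It passed in 4 alternatives, among them the fit without dim probe sets (adjusted p = 0.036 from limma). The other 4 exchangers of the family, *Slc9a4*, *Slc9a5*, *Slc9a7* and *Slc9a9*, lay below the median signal and were not called, with differences from -0.31 to 0.02. *Slc9a3r1* and *Slc9a3r2*, the scaffolds NHERF1 and NHERF2 that hold NHE3 at the membrane, differed by 0.11 (interval -0.05 to 0.27) and 0.12 (interval -0.05 to 0.29) with adjusted p of 0.36 and 0.34 from limma.

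The apical anion exchangers of the family *Slc26* also moved in opposite directions. *Slc26a3* encodes DRA, the chloride/bicarbonate exchanger whose loss causes congenital chloride diarrhea. Its log2 signals were 10.76, 10.91 and 10.89 in control villi and 10.36, 9.91 and 10.36 in mutant villi, and mutant replicate 2 was the lowest. The mean fell by 0.64, from 10.85 ± 0.08 to 10.21 ± 0.26, or 1.56-fold lower (interval -0.94 to -0.34, adjusted p = 0.013 from limma). *Slc26a6* encodes PAT1, an apical exchanger that also carries oxalate. It read 8.06, 8.38 and 8.45 in control villi and 9.12, 9.03 and 9.06 in mutant villi. The mutant arrays were close together and all lay above the controls, with a rise of 0.77 from 8.30 ± 0.21 to 9.07 ± 0.046, or 1.71-fold (interval 0.52 to 1.03, adjusted p = 0.0027 from limma).

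DRA is abundant in colon, so markers of colon epithelium are given beside it. Of 9 measured, 2 fell (*Aqp8* and *Mettl7b*) and 0 rose (22.2% called, beside 19.5% of all genes), and 3 had an unadjusted p under 0.05. Below the median signal lay 6 of them, none called. These differed by 0.37 (*Car1*), 0.12 (*Hoxb13*), 0.05 (*Car4*), 0.05 (*Saa1*), -0.17 (*Hoxd10*) and -0.32 (*Aqp4*). The summed linear signal of all 9 ranged from 7653 to 7748 in control and from 3827 to 4266 in mutant arrays. Only *Aqp8*, *Mettl7b* and *Ceacam20* lay at or above the median signal, so they made up most of this sum. *Aqp8* fell by 4.71 on the log2 scale and *Mettl7b* by 0.75, and *Ceacam20* differed by -0.24 (adjusted p = 0.18 from limma). The part of the colon markers in the fall of *Slc26a3* was not tested. *Slc26a2*, a sulfate transporter, read 11.24, 11.06 and 11.12 in control villi and 11.16, 10.92 and 11.30 in mutant villi. The ranges overlapped and the difference was -0.013 (interval -0.27 to 0.24, adjusted p = 0.95 from limma). The other 8 members of the family were not called, with differences from -0.20 (*Slc26a5*) to 0.15 (*Slc26a9*), and 6 of them lay below the median signal.

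The stretches of 250 bases before the RefSeq transcription start (assembly GRCm38.p6) of *Slc9a3*, *Slc26a3*, *Slc26a6* and *Slc34a3* are printed to show the promoters of genes that moved in opposite directions in the same villi. They were chosen by hand among the 7 called genes with a single start in the table, which held 41 of the 51 genes and 11 of the 14 called. Capitals mark a TATA box (TATAAA), a GC box (GGGCGG) or a CCAAT box (CCAAT), searched on both strands, and none of the matches overlap. The sequences lie at chr13:74121163-74121412 (plus strand), chr12:31437969-31438218 (plus strand), chr9:108853793-108854042 (plus strand) and chr2:25234235-25234484 (minus strand), in that order, and each reads 5′ to 3′ on the gene's strand.
Slc9a3: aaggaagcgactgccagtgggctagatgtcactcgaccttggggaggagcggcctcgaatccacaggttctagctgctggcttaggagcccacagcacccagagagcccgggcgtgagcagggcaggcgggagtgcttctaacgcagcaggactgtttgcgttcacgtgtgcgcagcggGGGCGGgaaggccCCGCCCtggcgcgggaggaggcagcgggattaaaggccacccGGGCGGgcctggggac
Slc26a3: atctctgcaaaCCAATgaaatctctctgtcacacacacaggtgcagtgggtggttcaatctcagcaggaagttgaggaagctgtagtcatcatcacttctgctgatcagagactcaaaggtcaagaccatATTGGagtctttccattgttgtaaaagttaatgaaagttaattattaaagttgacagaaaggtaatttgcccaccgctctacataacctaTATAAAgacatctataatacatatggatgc
Slc26a6: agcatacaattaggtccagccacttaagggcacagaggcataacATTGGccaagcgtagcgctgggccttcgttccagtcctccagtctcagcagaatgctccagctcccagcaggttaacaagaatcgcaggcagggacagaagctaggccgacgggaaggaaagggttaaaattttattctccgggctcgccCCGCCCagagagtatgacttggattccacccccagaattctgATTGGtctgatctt
Slc34a3: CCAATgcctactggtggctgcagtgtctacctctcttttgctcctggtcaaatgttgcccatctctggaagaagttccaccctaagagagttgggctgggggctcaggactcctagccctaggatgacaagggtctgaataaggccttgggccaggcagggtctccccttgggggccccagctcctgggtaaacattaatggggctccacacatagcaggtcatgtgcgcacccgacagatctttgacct

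The windows of the paired absorptive genes differed in composition. That of *Slc9a3* held 67.6% G and C and 3 GC boxes, the nearest ending 11 bases before the start. That of *Slc26a3* held 38.8% G and C, a TATA box from 30 to 25 bases before the start and 2 CCAAT boxes. That of *Slc26a6*, which rose, held 53.2% G and C, 1 GC box and 2 CCAAT boxes, and that of *Slc34a3* held 56.4% and 1 CCAAT box at its far end. Over 32851 windows of the same length, 12.4% held a TATA box, 32.7% a GC box and 33.8% a CCAAT box. A match describes the letters and is no measured binding site.

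**Figure D2:**
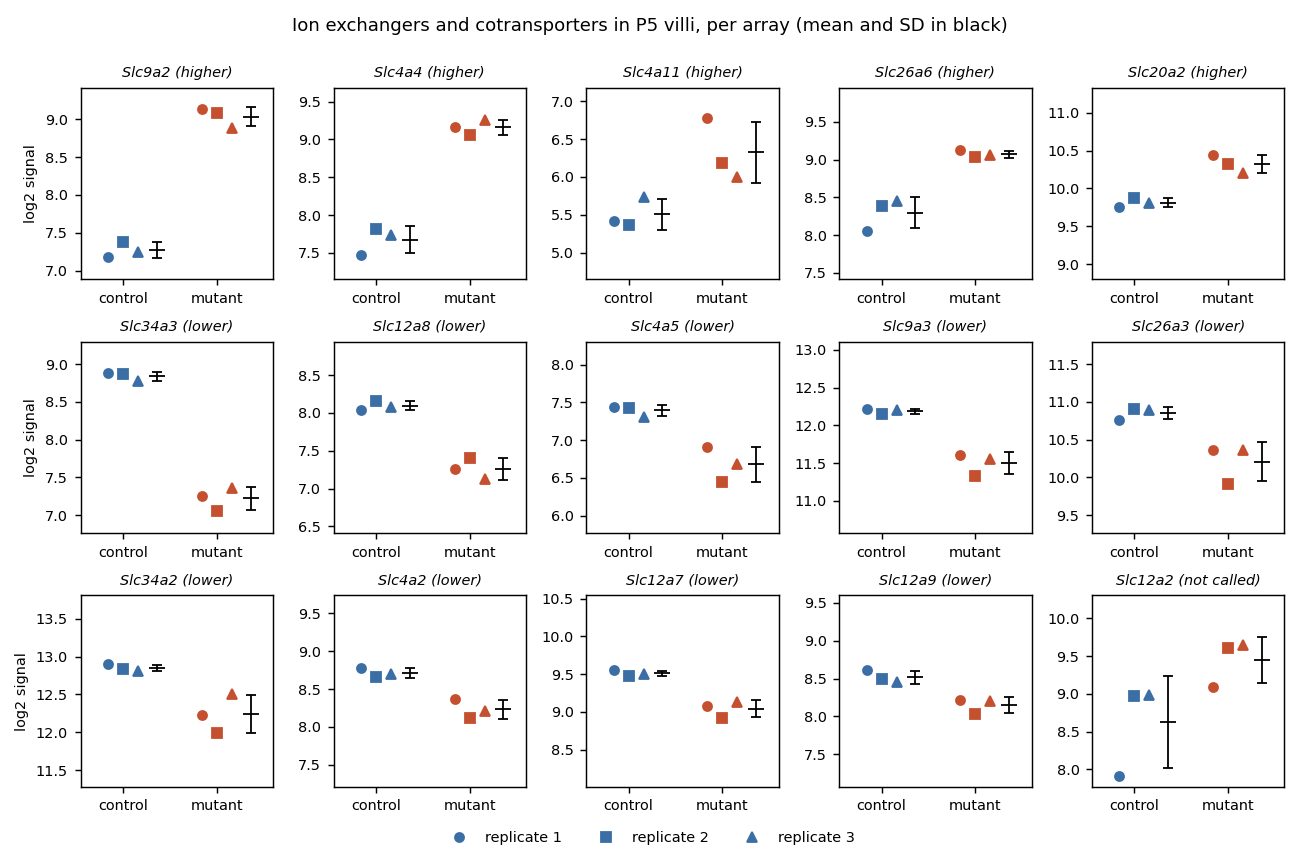
Log2 signal of the 14 called genes and of *Slc12a2*, which was not called, in each array (circle, replicate 1; square, replicate 2; triangle, replicate 3; blue, control; orange, mutant), with the mean and SD of 3 arrays in black. Each vertical axis spans the same number of log2 units but starts at its own level, and in all 15 panels the groups stand apart, least clearly in *Slc12a2*, where replicate 1 is the lowest of both groups.

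Of the 9 transporters of the family *Slc4*, most of them bicarbonate carriers, 2 rose, 2 fell and 5 were not called. The called share was 44.4%, beside 19.5% of all genes and 31.5% of those at or above the median signal, where 5 of the 9 lay. *Slc4a4* encodes NBCe1, the basolateral sodium bicarbonate cotransporter. It read 7.47, 7.82 and 7.74 in control villi and 9.16, 9.06 and 9.26 in mutant villi. All 3 mutant arrays lay more than 1 unit above all controls, and the mean rose by 1.48, from 7.68 ± 0.18 to 9.16 ± 0.10, or 2.8-fold (interval 1.23 to 1.73, adjusted p = 0.00015 from limma). *Slc4a5*, which encodes the related cotransporter NBCe2, read 7.44, 7.43 and 7.31 in control villi and 6.91, 6.45 and 6.69 in mutant villi. It fell by 0.71, from 7.39 ± 0.07 to 6.68 ± 0.23, or 1.64-fold lower (interval -0.98 to -0.44, adjusted p = 0.0057 from limma).

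*Slc4a2* encodes AE2, a basolateral chloride/bicarbonate exchanger. Its log2 signals were 8.78, 8.66 and 8.70 in control villi and 8.37, 8.12 and 8.21 in mutant villi, without overlap. The mean fell by 0.48, from 8.71 ± 0.061 to 8.23 ± 0.13 (interval -0.68 to -0.28, adjusted p = 0.0082 from limma). *Slc4a11*, whose human counterpart is mutated in corneal dystrophy, is placed with this family by sequence but is not a bicarbonate carrier. It lay below the median signal, at 5.42, 5.36 and 5.73 in control villi and 6.78, 6.19 and 6.00 in mutant villi. The mutant arrays were spread widely and replicate 1 was the highest. The rise of 0.82 (interval 0.37 to 1.28, adjusted p = 0.026 from limma) had the highest adjusted p of the 14 calls. Leaving out control replicate 1, control replicate 2 or mutant replicate 2 ended the call (adjusted p = 0.076, 0.085 and 0.058 from limma), and so did averaging control replicates 2 and 3 (adjusted p = 0.051 from limma).

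*Slc4a1* encodes band 3, the anion exchanger of red cells. It read from 6.35 to 6.58 in control villi and from 6.42 to 6.87 in mutant villi, with a difference of 0.14 (interval -0.15 to 0.43, adjusted p = 0.52 from limma). Of 10 erythroid markers 3 were measured, *Alas2*, *Epb42* and *Rhag*, and 0 were called by limma or had an unadjusted p under 0.05. Their summed linear signal ranged from 165 to 177 in control arrays and from 134 to 315 in mutant arrays. *Slc4a3*, a chloride/bicarbonate exchanger of excitable tissue, differed by 0.13 in its brighter probe set and by 0.09 in its dimmer one, and neither was called. The neuronal *Slc4a8* and *Slc4a10* and the kidney gene *Slc4a9* were below the median signal and not called, at 0.17, 0.24 and 0.07.

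Among the cation-chloride cotransporters, 3 of 8 fell and 0 rose by limma, and 5 had an unadjusted p under 0.05, *Slc12a2* and *Slc12a4* among them. The called share was 37.5%, beside 19.5% of all genes and 31.5% of those at or above the median signal, where 5 of the 8 lay. *Slc12a8*, a distant relative whose substrate is debated, read 8.04, 8.16 and 8.08 in control villi and 7.26, 7.41 and 7.12 in mutant villi. It fell by 0.83, from 8.09 ± 0.061 to 7.26 ± 0.15, or 1.78-fold lower (interval -1.04 to -0.62, adjusted p = 0.00088 from limma). *Slc12a7* encodes the potassium chloride cotransporter KCC4. It read 9.55, 9.48 and 9.50 in control villi and 9.08, 8.92 and 9.13 in mutant villi, and fell by 0.47 (interval -0.65 to -0.28, adjusted p = 0.0066 from limma). *Slc12a9*, whose transport is also unsettled, read 8.61, 8.49 and 8.45 against 8.22, 8.03 and 8.21. It fell by 0.36 (interval -0.56 to -0.17, adjusted p = 0.024 from limma), and leaving out control replicate 1, control replicate 2 or mutant replicate 2 ended the call (adjusted p = 0.064, 0.065 and 0.082 from limma). With control replicates 2 and 3 averaged it missed the threshold (adjusted p = 0.051 from limma).

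*Slc12a2* encodes NKCC1, the cotransporter that loads sodium, potassium and chloride through the basolateral membrane of secretory cells. Its log2 signals were 7.92, 8.97 and 8.99 in control villi and 9.09, 9.61 and 9.64 in mutant villi. The lowest mutant array lay just above the highest control, and replicate 1 was low in both groups. The difference of 0.82 was as large as that of *Slc4a11* but its interval ran from 0.15 to 1.49, and the gene was not called (adjusted p = 0.098 from limma). It was called with the Y-linked signal as a covariate (difference 0.76, adjusted p = 0.011 from limma). Against control replicate 1 alone its difference was 1.53. Without control replicate 1 the difference was 0.47 (adjusted p = 0.13 from limma). The summed linear signal of smooth muscle and fibroblast markers was also lowest in replicate 1 of each group. It was 2112, 2823 and 2670 in control arrays and 2793, 3558 and 3428 in mutant arrays. Not every marker followed, with *Cnn1* at 6.31, 6.59 and 6.02 in control arrays and *Pdgfra* at 9.15, 9.31 and 9.13 in mutant arrays. Of these 9 markers 2 rose (*Dcn* and *Pdgfra*) and 0 fell by limma, with no others at an unadjusted p under 0.05. The called share was 22.2%, beside 19.5% of all genes. The part of these markers in the level of *Slc12a2* was not tested.

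The other members of this family were not called. *Slc12a4*, the widely expressed potassium chloride cotransporter KCC1, differed by 0.19 (interval 0.004 to 0.37, adjusted p = 0.16 from limma) without overlap. The kidney cotransporters *Slc12a1* and *Slc12a3* and the neuronal *Slc12a5* lay below the median signal, with differences of -0.16, -0.07 and -0.05.

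Sodium phosphate cotransporters showed the strongest fall of the 51 genes. *Slc34a3* encodes NaPi-IIc, known mainly from kidney. It read 8.88, 8.87 and 8.77 in control villi and 7.25, 7.06 and 7.36 in mutant villi. Every mutant array lay more than 1 unit below every control, and the mean fell by 1.62, from 8.84 ± 0.061 to 7.22 ± 0.15, or 3.07-fold lower (interval -1.83 to -1.40, adjusted p = 6.1e-05 from limma). *Slc34a2* encodes NaPi-IIb, the phosphate cotransporter of the intestinal brush border. It read 12.90, 12.84 and 12.81 in control villi and 12.23, 11.99 and 12.50 in mutant villi. The mutant arrays were spread more widely than the controls and all lay below them. The mean fell by 0.61, from 12.85 ± 0.046 to 12.24 ± 0.26, or 1.53-fold lower (interval -0.90 to -0.32, adjusted p = 0.014 from limma). *Slc34a1*, the kidney cotransporter NaPi-IIa, lay below the median signal and differed by -0.06 (adjusted p = 0.69 from limma).

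Of both type III phosphate transporters measured, 1 rose and 1 was not called. *Slc20a2* (PiT-2) read 9.75, 9.87 and 9.81 in control villi and 10.44, 10.32 and 10.21 in mutant villi. It rose by 0.51, from 9.81 ± 0.06 to 10.32 ± 0.12, or 1.43-fold (interval 0.32 to 0.71, adjusted p = 0.0053 from limma). *Slc20a1* (PiT-1) read 9.57, 8.93 and 9.04 in control villi and 9.10, 9.53 and 8.92 in mutant villi. The ranges covered each other almost wholly, with a difference of 0.003 and an interval from -0.46 to 0.47 (adjusted p = 1 from limma). Changes of up to about that size in *Slc20a1* could not have been told from the spread between arrays.

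None of the 8 sodium/calcium exchangers was called. Their differences ran from -0.27 (*Slc24a3*) to 0.11 (*Slc24a2*), with adjusted p from 0.1 to 0.95 from limma, and 1 had an unadjusted p under 0.05. Of these, 7 lay below the median signal, where few genes of any kind were called. *Slc24a3*, a potassium-dependent exchanger, was the exception, at 6.85, 6.70 and 6.76 in control villi and 6.37, 6.67 and 6.46 in mutant villi. The groups narrowly missed overlapping. *Slc8a1*, the exchanger NCX1 of heart muscle, differed by -0.16 in its brighter probe set and by -0.12 in its dimmer one (adjusted p = 0.26 and 0.55 from limma).

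For most genes not called, the data bound the change. Of 37, 34 had a 95% interval wholly within 0.5 log2 units of 0, the exceptions being *Slc12a2*, *Slc4a10* and *Slc9a7*, and 36 within 1 unit, the exception being *Slc12a2*. A dim probe set can understate a change, so a narrow interval below the median signal limits the signal and not the transcript.

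**Figure D3:**
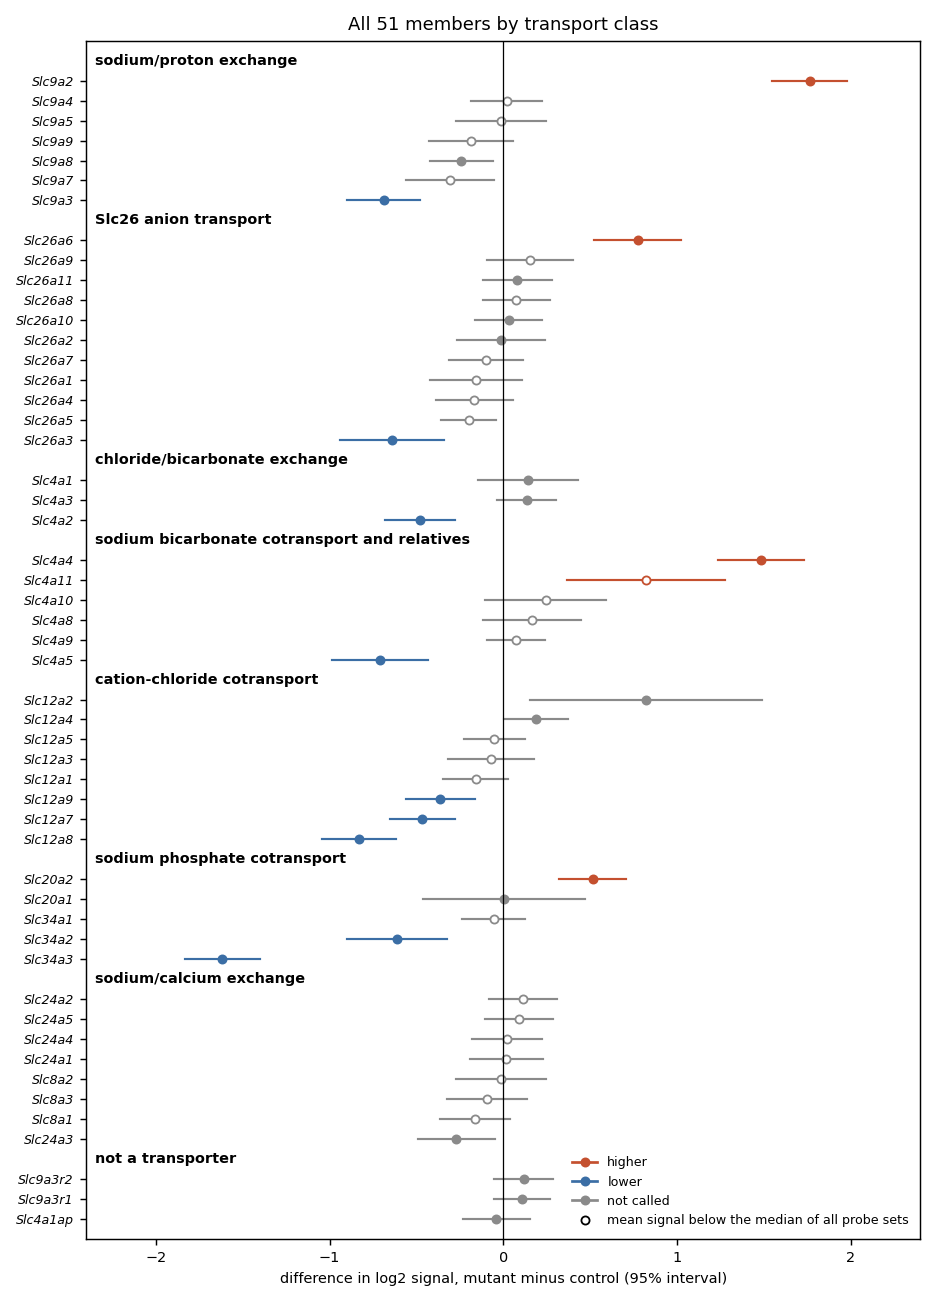
Difference in log2 signal (mutant minus control) with its 95% interval for all 51 genes, grouped by what they carry. Orange genes were called higher, blue genes lower and grey genes were not called, and open circles mark a mean signal below the median of all probe sets. The 5 rises and 9 falls are spread over 6 transport classes, and no sodium/calcium exchanger was called.

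Channels, pumps and regulators that work beside these carriers were read from a list of 39 genes, of which 38 were measured. Of these, 14 rose, 4 fell and 20 were not called (47.4% called). The share was 19.5% over all genes and 31.5% at or above the median signal, where 30 of the 38 lay. The list was chosen with earlier results of these data known, so its called share is no test of the partners. The median difference was 0.09, against 0.005 for all genes. *Cftr*, the apical chloride channel of secretory epithelium, read 7.60, 7.93 and 8.09 in control villi and 9.65, 9.15 and 9.22 in mutant villi, a rise of 1.47 (adjusted p = 0.00094 from limma). *Scnn1g*, the gamma subunit of the epithelial sodium channel, read 6.96, 7.40 and 7.33 in control villi and 5.22, 5.43 and 5.40 in mutant villi, and fell by 1.88 (adjusted p = 0.00011 from limma). Neither gene's groups overlapped. The alpha subunit gene *Scnn1a* differed by -0.35 (adjusted p = 0.1 from limma), and *Scnn1b* lay below the median signal at a difference of 0.02 (adjusted p = 0.93 from limma).

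The other partners with large differences were channels, a peptide, kinases and an anhydrase. The chloride channel *Clcn2* rose by 1.32, from 8.18 ± 0.13 to 9.50 ± 0.19 (adjusted p = 3e-04 from limma). *Guca2a*, which encodes guanylin, the peptide that activates the guanylate cyclase of the brush border, rose by 1.58, from 10.37 ± 0.42 to 11.95 ± 0.12 (adjusted p = 0.0013 from limma). *Prkg2*, the cyclic GMP-dependent kinase of the same pathway, fell by 0.77 (adjusted p = 0.0013 from limma), and the receptor gene *Gucy2c* differed by 0.04 (adjusted p = 0.81 from limma). The potassium channels *Kcnn4* and *Kcnq1* rose by 0.84 and 0.72 (adjusted p = 0.0012 and 0.0025 from limma). *Sgk1*, a kinase that acts on sodium transport, rose by 1.14 (adjusted p = 0.001 from limma), and the carbonic anhydrase *Car9* rose by 0.95 (adjusted p = 0.00026 from limma). *Clca4a*, a secreted regulator of the calcium-activated chloride channel family, rose by 0.99 (adjusted p = 0.025 from limma). Leaving out any mutant replicate ended this call, at an adjusted p of 0.052 to 0.091 from limma. Against control replicate 1 alone the difference was 0.57. On that control *Cftr* differed by 1.74 and *Scnn1g* by -1.61, and fewer partners were called.

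Both sodium pump beta subunits in the list rose, *Atp1b1* by 0.48 and *Atp1b3* by 0.29 (adjusted p = 0.014 and 0.025 from limma). The phosphate exporter *Xpr1* fell by 0.48 (adjusted p = 0.013 from limma). *Car2*, a carbonic anhydrase, read 6.68, 6.90 and 6.99 in control villi and 10.17, 7.26 and 7.27 in mutant villi. Its mean difference of 1.38 came mostly from mutant replicate 1 and the gene was not called (adjusted p = 0.24 from limma). *Gucy2c*, *Scnn1a*, *Scnn1b*, *Kcnq1*, *Prkg2*, *Atp1b1*, *Atp1b3*, *Xpr1* and *Car2* were chosen for the text after their values were seen.

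**Figure D4:**
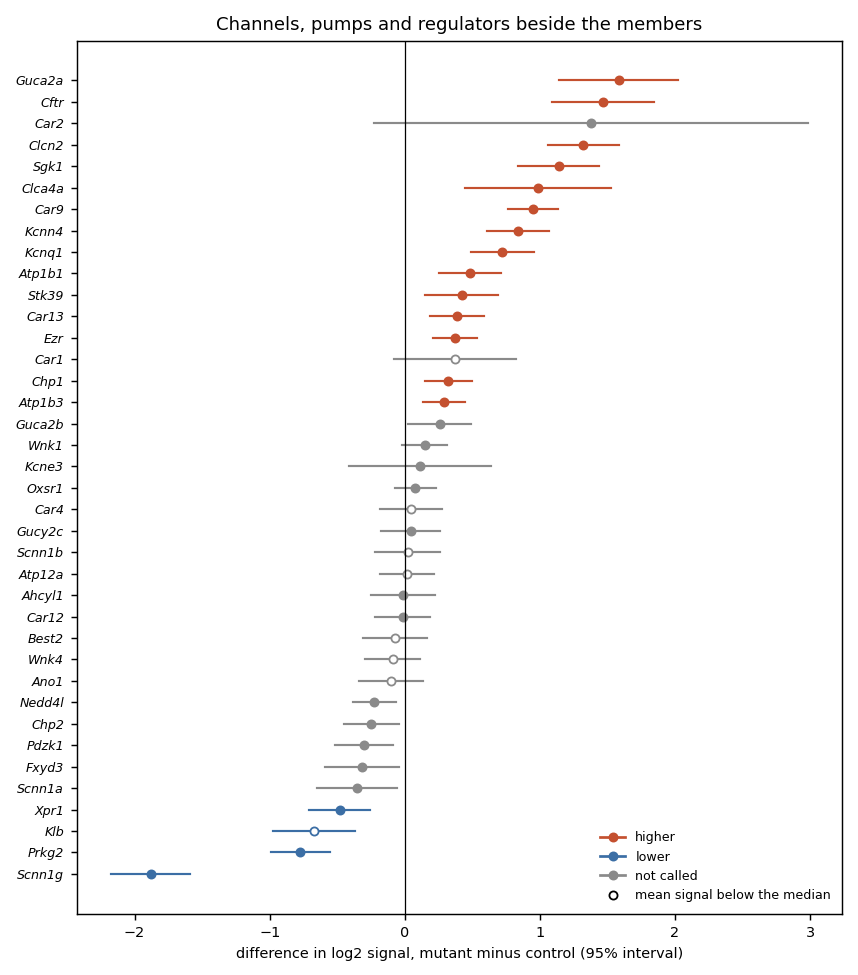
Difference in log2 signal (mutant minus control) with its 95% interval for the 38 measured channels, pumps and regulators, ordered by difference. Colours and open circles are as in the plot of all 51 genes. The rises reach 1.58 in *Guca2a*, *Scnn1g* lies lowest at -1.88, and the wide interval of *Car2* comes from mutant replicate 1, the highest of its 6 arrays.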

How the data were processed

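Villi of 3 control and 3 *Trpm7*-deficient replicates were profiled on Affymetrix whole-transcript arrays from biotin-labelled total RNA. The deposited log2 signals, 1 per probe set and array, were used as the authors left them. How these were background-corrected and normalized, and with what software, no source used here states. Of 30177 probe sets, 21789 carried 1 gene symbol in the platform annotation and 1621 carried several, while the annotation did not list 6767. Names of 21698 were updated through Entrez IDs. Genes were taken by symbol pattern, and 53 probe sets gave 51 genes, with 2 genes measured by more than 1 probe set. Levels of different probe sets were not compared. Genotypes were contrasted in limma 3.58.1 under R 4.3.3 (lmFit and eBayes on the log2 values, 3.92 prior degrees of freedom), and p-values were adjusted by Benjamini-Hochberg across every probe set. Intervals are limma's at 95%. The code was tested on simulated data. Promoter windows came from RefSeq. The number of arrays limits the precision.

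The text names every called gene of these families, those with a known part in gut epithelium or red cells, and up to 8 called partners with the largest difference. Genes and lists were chosen with earlier results of these data known. Alternatives were array weights, trend with robust estimation, a replicate block, median centring, quantile normalization, filters on dim or unnamed probe sets, other probe sets of a gene, fold thresholds, an offset of 32 and each replicate left out. Another 3 were added after the data were seen. They took Y-linked signal as a covariate, averaged control replicates 2 and 3, or used control replicate 1 alone. No sample was left out.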

Additional observations from a re-analysis of the deposited data

How the results depend on the processing

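Over the alternatives that refit single genes, all 265 values of the 14 called ion carriers kept their direction and 247 passed the threshold. The 14 genes were picked by their calls on these same arrays, and their groups did not overlap. Leaving out arrays could not reverse them, so the kept direction is no independent support. *Slc9a2*, *Slc4a4*, *Slc26a6*, *Slc34a3* and *Slc12a8* passed in every alternative fit of single genes, as did 7 of the 8 named partners, before any fold threshold. With each replicate left out, 4 to 5 ion carriers rose and 8 to 9 fell, and 8 to 13 partners rose (8 without mutant replicate 1) and 3 to 5 fell. At a change of at least 2-fold, 2 ion carriers rose and 1 fell, and 4 partners rose and 1 fell. At 1.5-fold, 8 partners rose. The shares of all genes called with a replicate left out or at these fold thresholds were not computed, so the counts have no background beside them. The fit against control replicate 1 alone, counted in the 265 values, assumes that this array varies like the others. Fewer ion carriers and partners passed the threshold there, and the cause was not tested, beyond there being fewer arrays. *Slc4a11* missed the threshold with an offset of 32 (adjusted p = 0.052 from limma).

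The difference of *Slc26a2* turned to 0 with array weights, and it ran from -0.1 to 0.09 with a replicate left out, above 0 without control replicate 1 (0.037) or mutant replicate 2 (0.09). That of *Slc20a1* turned to -0.047 with median centring, -0.094 with control replicates 2 and 3 averaged, -0.387 against control replicate 1 alone, and from -0.17 to 0.198 with a replicate left out. Neither was ever called.

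The labels do not say that replicate numbers pair samples, so they were not treated as pairs in the main fit. Deviations of same-numbered arrays correlated at 0.174, 0.039 and 0.119, and those of differently numbered arrays at -0.162 to 0.085. These values leave the pairing unsettled. With the replicate block, 6 ion carriers rose, *Slc12a2* added (0.82, adjusted p = 0.0092 from limma), and 9 fell, and 13 partners rose and 4 fell. The share of all genes called with the block was not computed.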
